A study of Mus musculus with 10 samples.

Results

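The interferon-stimulated genes Irf7, Ifit1, Ifit3, Oasl2, Rsad2, Bst2, Ifi27, Isg15 and Usp18 were followed through the cerebellum and cerebral cortex of Snx14-KO mice. The 9 genes were chosen by name as widely used readouts of an interferon response, with earlier results of these data known. They were taken out of 55536 genes counted, and all 9 were counted in all 10 libraries. The question was whether an interferon response accompanies the rise of astrocyte and microglia genes in the KO cerebellum. None of the 9 was called in KO cerebellum. None was called in KO cortex either, where the test called no gene at all, Snx14 included. Between the tissues, all 9 had a higher estimate in control cerebellum than in control cortex. For Isg15 and Rsad2 it was higher by 0.01, with a sign that turned under RLE scaling and DESeq2. Called higher in cerebellum were 4 of 9, against 19.2% of all genes tested. In either direction 8433 of 20614 genes were called.

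Mice were 1 year old and gave both tissues each, so that 5 animals made 10 libraries. Each tissue had 3 controls, of which controls 1 and 2 are labelled Het and control 3 WT, and 2 Snx14-KO mice (KO 1 and KO 2). KO mice carry a 1-base frameshift deletion in both copies of Snx14, made by CRISPR/Cas9 on the C57BL/6J strain, a germline change with no tissue-specific driver. Expression is given as CPM, the counts of a gene scaled to a fixed library size. Snx14, a sorting nexin of the endoplasmic reticulum, was at 54.0 ± 19.3 CPM (SD, n = 3) in control cerebella and 17.0 ± 1.48 CPM (SD, n = 2) in KO cerebella, and at 38.6 ± 8.85 and 15 ± 0.741 CPM in the cortices. The Het controls 1 and 2 had 44.3 and 41.5 CPM in cerebellum and 33.1 and 33.8 CPM in cortex. The WT control 3 had 76.1 CPM in cerebellum and 48.8 CPM in cortex. The fall in KO mice passed in cerebellum (log2 difference -1.66, edgeR adjusted p 0.0140). In cortex (-1.36, unadjusted p 0.000132, edgeR adjusted p 0.754) it did not, although DESeq2 called it (adjusted p 1.42e-06). Libraries held 16088310 to 22975355 gene counts. Granule cell genes averaged 9.02 ± 0.104 on the log2 CPM scale in control cerebella (SD, n = 3) and 4.22 ± 0.269 in control cortices, and cortical excitatory neuron genes 2.98 ± 0.0351 and 6.01 ± 0.242, as the tissue labels say. One feature of the cerebellum libraries is given here because later paragraphs refer to it. Summed over 8 choroid plexus genes, none of them at 0, control 2 had 1230 CPM and KO 1 had 48.9 CPM, whereas the other 3 cerebella had 2940 to 3510 CPM.

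Interferons are secreted proteins that cells release when they sense foreign or misplaced nucleic acid. Type I interferons bind the receptor formed by Ifnar1 and Ifnar2, the kinases Jak1 and Tyk2 are switched on, and the transcription factor complex ISGF3, which holds Stat2 and Irf9, forms. ISGF3 binds the interferon-stimulated response element (ISRE) in the promoters of many genes. In the brain, microglia, astrocytes, endothelial cells and the choroid plexus can all respond, and an interferon signature has been described in ageing and in several neurodegenerative models.

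The promoters of the members were searched for this element. RefSeq windows (build GRCm38.p6) of 300 bases, from 250 before to 50 after the start site, were matched for 7 of the 9 members, all but Ifi27 and Usp18. The ISRE core was searched on both strands as GAAA, any 2 bases and GAAA, and 5 of 7 member windows held it, against 3.44% of all 32851 windows. A longer form, with CT after the second GAAA, stood in 3 of 7 (Bst2, Ifit1 and Ifit3), against 0.271% of all windows, and every longer match contains a core. The gamma-activated site, searched as TTC, any 3 bases and GAA, stood in 1 of 7 (Bst2), where it overlaps the ISRE core, against 8.30% of all windows. No core was found in the windows of Irf7 and Oasl2. The 5 windows with a core are shown from 160 to 31 bases before the start site, 5′ to 3′ on the strand of the gene, because they hold the sequence these genes share. Capitals mark the ISRE core, which reads TTTC, 2 bases and TTTC where it lies on the opposite strand.
Ifit1 (chr19:34640729-34640858, plus strand): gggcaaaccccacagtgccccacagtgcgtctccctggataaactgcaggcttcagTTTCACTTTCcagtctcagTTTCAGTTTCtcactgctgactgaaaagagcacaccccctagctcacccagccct
Ifit3 (chr19:34583369-34583498, plus strand): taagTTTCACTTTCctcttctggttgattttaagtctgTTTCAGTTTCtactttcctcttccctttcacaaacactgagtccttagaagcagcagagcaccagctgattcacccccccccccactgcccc
Bst2 (chr8:71537503-71537632, minus strand): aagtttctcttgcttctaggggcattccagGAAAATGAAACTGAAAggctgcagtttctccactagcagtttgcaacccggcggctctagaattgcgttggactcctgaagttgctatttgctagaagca
Isg15 (chr4:156200849-156200978, minus strand): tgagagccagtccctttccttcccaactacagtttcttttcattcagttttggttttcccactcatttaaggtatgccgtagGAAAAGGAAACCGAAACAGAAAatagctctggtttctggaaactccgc
Rsad2 (chr12:26456483-26456612, minus strand): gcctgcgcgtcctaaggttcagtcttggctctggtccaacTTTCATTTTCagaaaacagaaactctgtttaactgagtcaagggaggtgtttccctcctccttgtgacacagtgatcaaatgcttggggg
Ifit1 and Ifit3, which lie in the same stretch of chromosome 19 with Ifit3b between them, each carry a pair of cores on the opposite strand. In Isg15 and Bst2 the cores overlap and form 1 run. These matches describe the letters in a window and do not show that a factor was bound.

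Compared per length, as TPM, which divide counts by gene length before scaling, the members spanned 2 orders of magnitude in control cerebellum. Ifi27, a small hydrophobic protein of mitochondrial and nuclear membranes, was highest at 104 ± 34.9 TPM (SD, n = 3), and Ifit3 followed at 44.1 ± 14.0 TPM, with no overlap between the libraries of the pair. Bst2, at 28.0 ± 13.5 TPM, overlapped Ifit3. Isg15 at 5.75 ± 1.84 TPM and Ifit1 at 5.53 ± 2.45 TPM overlapped each other, and neither overlapped Bst2. Irf7 (2.86 ± 0.877 TPM), Usp18 (2.54 ± 1.20 TPM), Oasl2 (2.30 ± 1.34 TPM) and Rsad2 (0.977 ± 0.207 TPM) were lowest, and each overlapped its neighbour in this order. Control cortex gave nearly the same order, from Ifi27 at 59.0 ± 4.51 TPM to Rsad2 at 0.823 ± 0.101 TPM, with Irf7 and Usp18 exchanged and not separable.

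Ifit3 had the smallest p among the members in KO cerebellum. Some IFIT proteins bind viral RNA that lacks the host cap modification. Ifit3 (ENSMUSG00000074896.3, chromosome 19, 34583531 to 34588731) was at 24.0, 17.3 and 32.1 CPM in control cerebella 1 to 3 and at 14.2 and 16 CPM in those of the KO mice. Both KO libraries lay below all controls, with control 2 only slightly above KO 2. The log2 difference was -0.69 (SE 0.229, 95% interval -1.22 to -0.17, unadjusted p 0.0156), and the edgeR adjusted p of 0.223 over all genes did not pass. Without control 2 the difference was -0.89 with an edgeR adjusted p of 0.0248, so whether the gene is called turns on that library. Of the 100-base stretches of Ifit3, 31.7% also occur in its neighbour Ifit3b. Multi-mapping reads were left out, which makes the separation of the pair uncertain, and the share of reads lost was not measured. Ifit3b was at 13 ± 5.63 CPM (SD, n = 3) in control and 7.03 ± 1.39 CPM (SD, n = 2) in KO cerebella, a log2 difference of -0.88 (edgeR adjusted p 0.307).

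Ifit1 (ENSMUSG00000034459.8, chromosome 19, 34640871 to 34650009), the effector that binds such RNA directly, was at 3.91, 3.13 and 6.98 CPM in the controls and 3.90 and 4.33 CPM in the KO cerebella. The KO values fell inside the control range, and the log2 difference was -0.18 (95% interval -0.91 to 0.56). It shares 3.29% of its 100-base stretches with Ifit1bl2. Its sign depended on control 3, since without that library the difference was 0.23.

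Irf7 is the transcription factor that amplifies type I interferon production. Irf7 (ENSMUSG00000025498.15, chromosome 7, 141262706 to 141266481) was at 3.96, 2.31 and 4.02 CPM in control and at 2.26 and 2.31 CPM in KO cerebella. Control 2 sat with the KO libraries rather than with the other controls. The log2 difference was -0.58 (SE 0.283, 95% interval -1.23 to 0.07), with an edgeR adjusted p of 0.442. Usp18 (ENSMUSG00000030107.10, chromosome 6, 121245906 to 121270917), the protease that removes Isg15 from proteins and dampens the interferon receptor, showed the same layout. It was at 2.37, 1.15 and 3.22 CPM in control and at 1.47 and 1.37 CPM in KO cerebella, and its interval ran from -1.60 to 0.29 around -0.66.

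Rsad2 went the other way. It encodes viperin, a radical SAM enzyme that makes a chain-terminating nucleotide and resides on the endoplasmic reticulum and lipid droplets. Rsad2 (ENSMUSG00000020641.16, chromosome 12, 26442746 to 26456452) was at 1.45, 1.06 and 1.53 CPM in control and at 1.70 and 2.61 CPM in KO cerebella. Both KO libraries lay above all controls, KO 1 by little and KO 2 by more. The log2 difference was 0.69 (SE 0.304, 95% interval -0.00 to 1.39), and the edgeR adjusted p was 0.375. These values rest on 22 to 61 counts a library.

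Isg15 and Oasl2 stayed near their control level on average. Isg15 (ENSMUSG00000035692.6, chromosome 4, 156199424 to 156200818), the ubiquitin-like modifier that Usp18 removes, was at 1.84, 1.25 and 1.06 CPM in control and at 1.70 and 1.16 CPM in KO cerebella, with a log2 difference of 0.03 (95% interval -0.76 to 0.82). Oasl2 (ENSMUSG00000029561.17, chromosome 5, 114896936 to 114912234), a member of the 2-5A synthetase family, was at 4.49, 2.07 and 7.40 CPM in control and at 4.18 and 5.49 CPM in KO cerebella, with a log2 difference of 0.07 (95% interval -0.91 to 1.05). The control libraries of Oasl2 alone spanned more than the KO pair. The sign of both differences changed without control 2, to -0.05 for Isg15 and -0.29 for Oasl2, and also without other single libraries.

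Bst2 and Ifi27 overlapped between the genotypes. Bst2 (ENSMUSG00000046718.8, chromosome 8, 71534255 to 71537456), the tetherin that holds budding virus particles at the cell surface, was at 8.46, 4.04 and 11.6 CPM in control and at 4.69 and 7.29 CPM in KO cerebella. Ifi27 (ENSMUSG00000064215.13, chromosome 12, 103434211 to 103440239) was at 51.2, 31.9 and 62.5 CPM in control and at 27.7 and 48.0 CPM in KO cerebella. In both genes control 2 and KO 1 were the lowest libraries, the same 2 that were low in choroid plexus genes. The log2 differences were -0.41 (95% interval -1.30 to 0.48) for Bst2 and -0.35 (95% interval -1.01 to 0.31) for Ifi27.

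**Figure D1:**
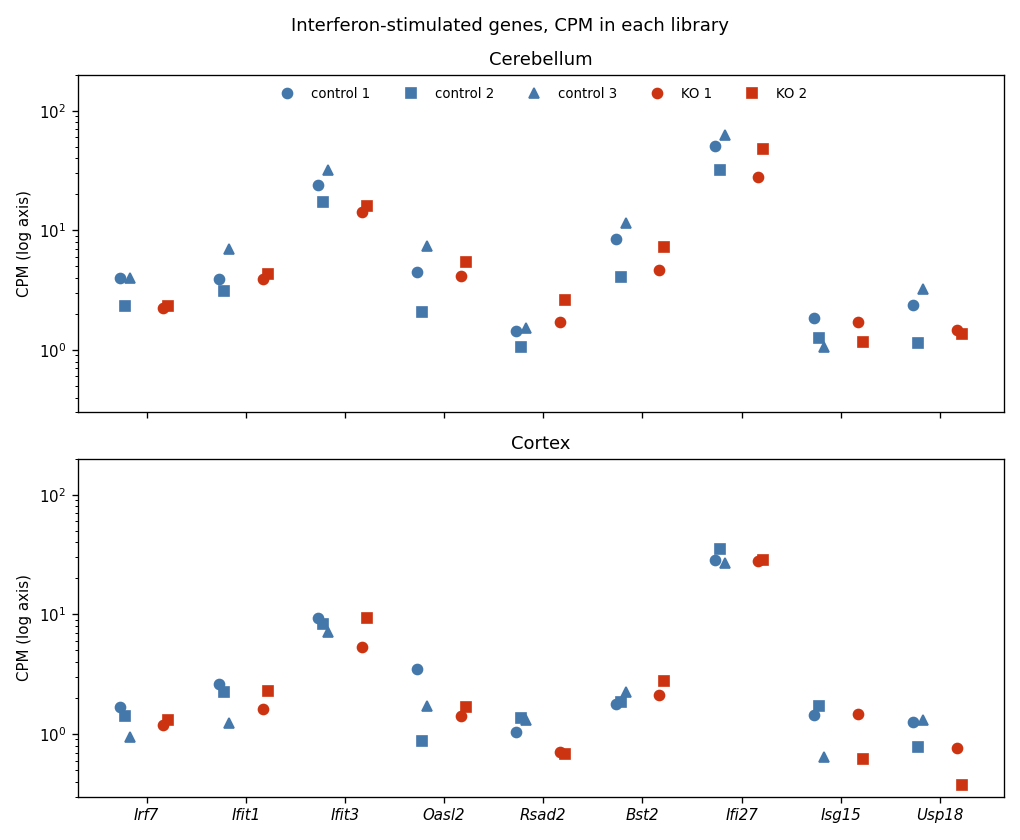
CPM of each member (log axis) in the 5 cerebellum and 5 cortex libraries, with controls in blue and KO in red and a marker shape for each replicate number. In cerebellum 7 of 9 members overlapped between KO and control, Ifit3 was lower (14.2 and 16 CPM against 17.3 to 32.1) and Rsad2 higher (1.70 and 2.61 CPM against 1.06 to 1.53).

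Across the 9 members in cerebellum, 0 were called by edgeR (adjusted p under 0.05 and an absolute log2 difference over 0.5), against 1.55% of all 19447 genes tested. DESeq2 called 0 as well, and 1 member had an unadjusted p under 0.05 in either tool. The difference was negative for 6 and positive for 3, with a median of -0.35 beside 0.000899 over all genes. The genotypes separated without overlap for 2 of 9 members, against 30.2% of all genes tested, a count near that share. The upper bound of the interval lay under the estimate for Gfap (1.30, interval 1.11 to 1.5) for 8 of 9 members, and over it for Rsad2 (1.39). Gfap belongs to the reactive astrocyte list described below, whose median difference was smaller, at 0.78. The upper bounds of Rsad2, Oasl2 (1.05) and Isg15 (0.82) lay over that median, and those of the other members under it. A rise of that size was therefore not excluded for Rsad2, Oasl2 and Isg15. For 8 of 9 members the interval included 0 and so left both directions possible.

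**Figure D2:**
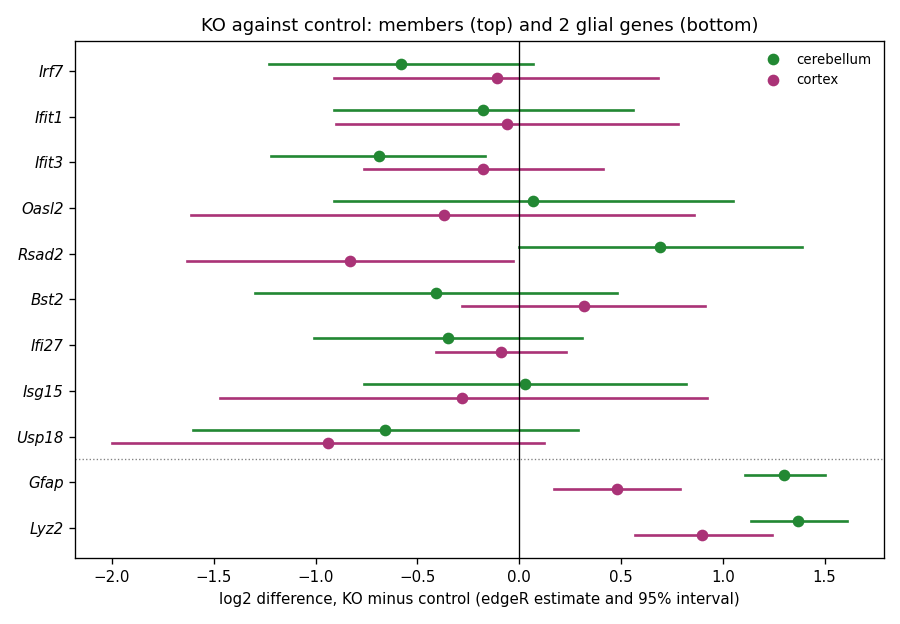
Log2 difference between KO and control for each member, with 95% intervals from edgeR, in cerebellum (green) and cortex (purple), above the same for Gfap and Lyz2. In cerebellum 8 of 9 member intervals included 0, against estimates of 1.30 for Gfap and 1.37 for Lyz2.

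Some glial genes were called higher in the same cerebella. In the reactive astrocyte list 15 of 15 tested genes were higher in KO, with a median log2 difference of 0.78, and 4 were called, among them Gfap (1.30, edgeR adjusted p 0.000444), C4b of the complement system (1.14, adjusted p 0.0169) and the protease inhibitor Serpina3n (1.38, adjusted p 0.0220). In the disease-associated microglia list 19 of 19 were higher, with a median of 0.73, and 3 were called: Lyz2 (1.37, edgeR adjusted p 0.000591), the lipid carrier Apoe (0.65, adjusted p 0.0124) and Spp1, or osteopontin (1.18, adjusted p 0.0330). Cd68, a lysosomal protein of phagocytes, had a difference of 0.95 and an edgeR adjusted p of 0.109, whereas DESeq2 called it (adjusted p 0.0413). DESeq2 called 8 genes of the reactive astrocyte list and 7 of the disease-associated microglia list, against 432 of all 19447 genes tested. Of the homeostatic microglia list, 11 of 12 were higher and 1 was called, Fcrls (1.62, edgeR adjusted p 0.00437). Gfap, Lyz2 and Fcrls were also called without each library in turn, whereas without control 1 the edgeR adjusted p was 0.109 for C4b, 0.0844 for Serpina3n, 0.0687 for Apoe and 0.170 for Spp1, and without KO 2 none of these 4 passed (0.0545 to 0.13). Serpina3n also missed without KO 1 (edgeR adjusted p 0.0535), Apoe without control 3 (0.0778) and Spp1 without control 2 (0.0583) or control 3 (0.121), so that Spp1 passed only without KO 1, and its estimate ran from 0.65 to 1.56. These lists were assembled with earlier results of these samples known, and their direction is not independent evidence. Other cell types moved in the same comparison. Of 10 Purkinje cell genes 9 were called lower, with a median of -1.12, and of 10 fibroblast and meningeal genes 10 were higher, with a median of 0.61 and 4 at an unadjusted p under 0.05, but 0 were called. Of 7 border macrophage genes 6 were higher, with a median of 0.42, and 0 were called. The part of these cells in the members' levels was not tested. In bulk tissue, more cells of a type and more RNA per cell cannot be told apart.

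The levels of the lists by library show how the 2 sets of genes were arranged over the mice. The mean log2 CPM of the members was 2.50, 1.80 and 2.77 in control cerebella and 2.06 and 2.30 in those of KO mice. That of the reactive astrocyte genes was 2.7, 2.43 and 2.7 in controls and 3.41 and 3.57 in KO. For disease-associated microglia genes it was 3.77, 3.77 and 3.95 in controls and 4.43 and 4.63 in KO. Both glial lists separated KO from control, whereas the members' KO values lay inside the control range. The WT control 3 was the highest cerebellum for 7 of 9 members, control 2 the lowest for 5 and KO 1 the lowest for 3. Over the same libraries the choroid plexus genes averaged 5.66, 3.23 and 5.55 in controls and 1.38 and 5.46 in KO. Control 2 and KO 1 were lowest in both sets. KO 1 was the lower of the pair in choroid plexus genes, and control 2 in the members. The part of choroid plexus tissue in the members' levels was not tested. With control 2 and KO 1 both left out, an alternative added after the data were seen, 1 member was called in cerebellum, Ifit3 with a log2 difference of -0.81, in a fit of 2 controls and 1 KO whose p-values are not reliable.

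**Figure D3:**
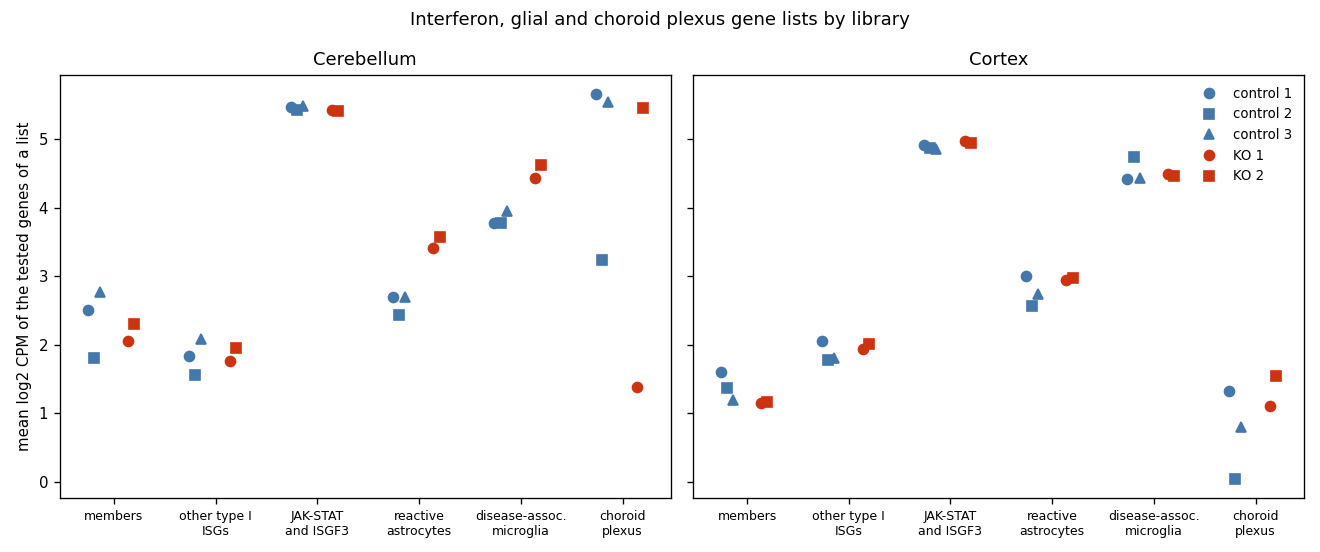
Mean log2 CPM of the tested genes of each list in each library, cerebellum on the left and cortex on the right, with controls in blue and KO in red. In cerebellum the KO libraries lay above all controls for reactive astrocytes (3.41 and 3.57 against 2.43 to 2.7) and inside the control range for the members (2.06 and 2.30 against 1.80 to 2.77), while the choroid plexus list was low in control 2 (3.23) and KO 1 (1.38).

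The rest of the pathway was read in the order in which the signal passes. Of 12 interferon genes (Ifnb1, 6 Ifna genes, Ifne, Ifnk, Ifng, Ifnl2 and Ifnl3) 8 were at 0 in all libraries and none exceeded 1 count in a library. At this depth a count of 0 allows up to 3 counts, which is 0.131 CPM in the deepest and 0.186 CPM in the shallowest library. Of the 6 receptor chains 0 were called in cerebellum, with a median log2 difference of 0.06. Ifngr2, a chain of the interferon-gamma receptor, had a difference of -0.44 (edgeR adjusted p 0.0678), and Il10rb, shared by interferon-lambda and interleukin-10 receptors, 0.38 (adjusted p 0.691). Of the 6 JAK-STAT and ISGF3 genes 0 were called, with a median of -0.01. Tyk2, a kinase of the type I receptor, differed by -0.11 (edgeR adjusted p 0.762). The mean log2 CPM of this list, 5.46 ± 0.0321 in control (SD, n = 3) and 5.42 ± 0.0141 in KO cerebella (SD, n = 2), varied far less between mice than that of the members.

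No upstream sensor was called. Of 14 tested nucleic acid sensors and adaptors 12 had a positive difference in KO cerebellum, with a median of 0.24 and 3 at an unadjusted p under 0.05, which 2611 of all 19447 genes had. Ticam1, the adaptor of Tlr3, differed by 0.53 (edgeR adjusted p 0.171), and Tlr7, a receptor for single-stranded RNA found in microglia, by 0.82 (adjusted p 0.237). None was called among the 6 nucleic acid clearing enzymes (median 0.08), where Rnaseh2b differed by 0.27 and Samhd1 by 0.15, nor among the 5 other interferon regulatory factors (median -0.05), where Irf2 differed by 0.19 and Irf5 by -0.10. The 6 negative regulators had a median of -0.01, with Ptpn2, a phosphatase of the pathway, at -0.26 (edgeR adjusted p 0.266) and Socs3 at 0.70 (adjusted p 0.416), and 0 were called.

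Target genes outside the 9 were not called either. Of 47 tested type I interferon-stimulated genes 0 were called in KO cerebellum, 24 had a positive and 23 a negative difference, and the median was 0.00. An unadjusted p under 0.05 was found for 4 of them, Dtx3l (-0.50), Ifit3b (-0.88), Ifitm1 (0.79) and Ly6e (0.23), in both directions. Interferon-gamma GTPases (14 tested, 0 called) had a median of -0.07, with Gbp6 at -0.48 and Iigp1 at 0.53, and these belong to families of near-identical genes whose counts are uncertain. Antigen processing genes (10 tested, 0 called) had a median of 0.04, with Tapbp at 0.14 and Psmb10 at 0.18. DESeq2 called 0 genes in each of these interferon lists.

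In cortex no member was called either, in a tissue where edgeR called no gene at these thresholds (0.0% of 19202 genes tested), so the absence of a call there says nothing about the members. The count of members at an unadjusted p under 0.05 was 1 with edgeR and 0 with DESeq2, which also called 0 members. The difference was negative for 8 of 9 members, with a median of -0.18 beside 0.00122 over all genes. KO lay below all controls for Rsad2 and Usp18 and overlapped them for the other 7, so 2 of 9 did not overlap, against 24.5% of all genes. Rsad2 was at 1.04, 1.37 and 1.30 CPM in control and at 0.703 and 0.684 CPM in KO cortices, a log2 difference of -0.83 (SE 0.344, 95% interval -1.63 to -0.03, edgeR adjusted p 0.829). Usp18 was at 1.27, 0.784 and 1.30 CPM in control and at 0.757 and 0.373 CPM in KO cortices, a log2 difference of -0.94 (95% interval -2.0 to 0.12, edgeR adjusted p 0.875). Both genes are at the low end of what these libraries resolve, since the KO cortices gave 11 and 13 counts for Rsad2 and 14 and 6 for Usp18.

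The remaining members were close to their controls in cortex. Ifi27 was at 28.6, 35.0 and 26.7 CPM in control and at 28.1 and 28.4 CPM in KO, and its interval was the narrowest of the 9, from -0.41 to 0.23. Ifit3 was at 9.30, 8.33 and 7.07 CPM in control and at 5.35 and 9.26 CPM in KO, so the KO pair enclosed the controls. Bst2, at 1.79, 1.86 and 2.24 CPM in control and at 2.11 and 2.80 CPM in KO, was the 1 member with a positive difference (0.32, 95% interval -0.28 to 0.91). Differences were -0.06 for Ifit1, -0.11 for Irf7, -0.28 for Isg15 and -0.37 for Oasl2, and the intervals of these 4 reached from -1.61 to 0.92. Control 1 was the highest cortex for 4 members and control 2 for 3. The reactive astrocyte and disease-associated microglia lists, with medians of 0.14 and -0.03, had no called gene in cortex by edgeR, which called none in this tissue. Gfap (0.48, 95% interval 0.17 to 0.79, edgeR adjusted p 0.754) and Lyz2 (0.90, 95% interval 0.57 to 1.24, adjusted p 0.754) were nevertheless above all controls in both KO cortices, and DESeq2 called Lyz2 (adjusted p 0.00578) and not Gfap (adjusted p 0.267).

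Whether the genotype acted differently in the 2 tissues was tested as an interaction in 1 fit of all libraries. No member passed (0 of 9, against 0.102% of 20614 genes), with DESeq2 also at 0 and 1 member at an unadjusted p under 0.05. That member was Rsad2, higher in both KO cerebella and lower in both KO cortices than all controls. Its effect in cerebellum exceeded that in cortex by 1.54 on the log2 scale (SE 0.440, 95% interval 0.57 to 2.51, unadjusted p 0.00507, edgeR adjusted p 0.294). For the other 8 members the interaction estimates ran from -0.71 for Bst2 to 0.46 for Oasl2. With the animal as a block, which uses that each mouse gave both tissues, 128 genes passed in place of 21, and still 0 members.

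Between the tissues more members were called than between the genotypes, which was also true of all genes. Over all genes 8433 of 20614 were called between the tissues in either direction, against 302 in KO cerebellum and 0 in KO cortex. In controls, 4 of 9 were called higher in cerebellum, against 19.2% of all genes tested, and none was called lower. They were Bst2 (1.92, SE 0.354, edgeR adjusted p 0.000824), Ifit3 (1.46, SE 0.242, adjusted p 0.000394), Irf7 (1.23, SE 0.275, adjusted p 0.00282) and Ifit1 (1.08, SE 0.334, adjusted p 0.0172). Ifi27 (0.58), Usp18 (0.90) and Oasl2 (1.11) had unadjusted p under 0.05 and edgeR adjusted p-values of 0.0616, 0.0673 and 0.0764. Isg15 and Rsad2 were both at 0.01, with intervals from -0.90 to 0.91 and from -0.59 to 0.61, and their sign turned to -0.01 with RLE scaling or DESeq2. The median over the 9 was 1.08 beside 0.0162 over all genes. Scaling by library totals alone moved the median over all genes to 0.123 and that of the members to 1.19.

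Pairing the tissues by animal raised the number. In the fit with the animal as a block 7 members were called, with Ifi27, Oasl2 and Usp18 passing at edgeR adjusted p-values of 0.0464, 0.00858 and 0.0265. Without control 2 of the cerebellum 7 were called, and without control 3 of the cerebellum 3, as Ifit1 (0.68, edgeR adjusted p 0.0847) then did not pass, nor did it without control 3 of the cortex (0.82, adjusted p 0.0685). KO mice, which this test did not compare, showed the same order. In TPM, 7 of 9 members were higher in the cerebellum than in the cortex of each of the 5 mice, and the exceptions, Isg15 and Rsad2, were lower in the cerebellum of control 2 alone. Ifi27 was nearly equal between the tissues in control 2 (65.8 against 64.0 TPM) and KO 1 (59.7 against 58.9 TPM). How many of all genes were higher in the cerebellum of every mouse was not counted. Bst2 was at 30.2, 13.5 and 40.4 TPM in control cerebella and 5.88, 5.53 and 7.53 TPM in the cortices of the same mice, and at 16.4 and 25.7 against 7.17 and 9.25 TPM in the KO mice. These libraries did not overlap.

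**Figure D4:**
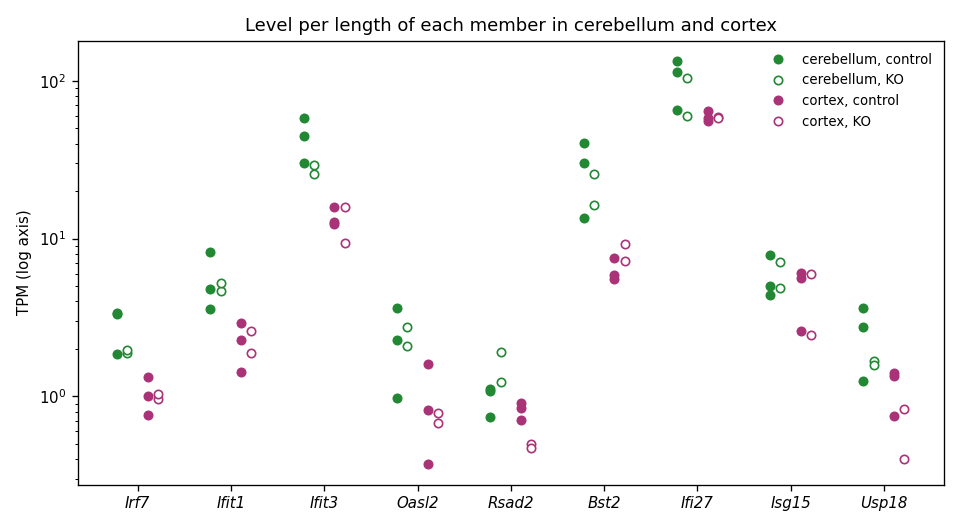
TPM (log axis) of each member in cerebellum (green) and cortex (purple), filled circles for controls and open circles for KO, one circle a library. Bst2 lay between 13.5 and 40.4 TPM in the 5 cerebella and between 5.53 and 9.25 TPM in the 5 cortices, whereas Isg15 overlapped between the tissues.

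Of 6 JAK-STAT and ISGF3 genes tested between the control tissues, 4 had a positive and 2 a negative difference, with a median of 0.44. Of these, 3 were called higher in cerebellum and 0 lower, against 3948 higher and 4485 lower of all 20614 genes tested. Stat2 (1.30, edgeR adjusted p 7.52e-07) and Irf9 (0.74, adjusted p 0.000644), which work together in ISGF3, were both called higher in control cerebellum. Of 14 sensors and adaptors 3 were called higher, led by Dhx58 (2.09, edgeR adjusted p 5.41e-06), a helicase that tunes RNA sensing, and Mavs (0.75, adjusted p 0.00116), the adaptor of the RNA helicases, and 5 lower, led by Tlr7 (-1.37, adjusted p 0.000376). Among the other regulatory factors Irf3 was higher (0.80, edgeR adjusted p 0.000414), while Irf8, a factor of microglia (-1.14, adjusted p 0.000272), and Irf2 (-0.67, adjusted p 0.00252) were lower. Of the negative regulators 2 were higher and 2 lower, with Ptpn2 (0.88), Pias3 (0.54) and Socs3 (-0.91) having the smallest p. The call of Socs3 was lost without cerebellum control 1, cerebellum control 2 or cortex control 1 (edgeR adjusted p 0.0502 to 0.142), and that of Pias3 without cortex control 2 (0.38).

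Not every target gene was higher in cerebellum. Of 49 other type I interferon-stimulated genes tested, 14 were called higher and 6 lower, with a median of 0.47. Over all 20614 genes tested, 3948 were called higher and 4485 lower. The 3 with the smallest adjusted p were all lower: Ly6e (-1.14, edgeR adjusted p 1.91e-06), Shisa5 (-0.79, adjusted p 1.82e-05) and Herc6 (-1.97, adjusted p 4.91e-05), the last being the mouse ligase that attaches Isg15. Gbp6 (2.66) and Tgtp1 (1.77) were the called GTPases, both higher, although Tgtp1 did not pass without cerebellum control 1, cerebellum control 3 or cortex control 2 (edgeR adjusted p 0.0543 to 0.0657), and 2 antigen processing genes were called higher and 1, Psmb10 (-1.28), lower. Other cells of the dissection differed in the same comparison. All 8 choroid plexus genes were called higher in cerebellum, with a median of 5.94, as were 7 of 10 fibroblast and meningeal genes, and all 12 homeostatic microglia genes were called lower, with a median of -1.65. Their part in the members' difference was not tested. With cerebellum control 2 and KO 1 left out, 7 members were called.

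The genes whose levels followed the members most closely were listed as a description. Pearson's r was taken between each gene and the mean of the members over the 10 libraries, centred within tissue, among 16133 genes with a mean of at least 1 CPM, of which 70 (0.434%) were in an interferon list. The 10 highest were 4930534D22Rik (r = 0.94), Rest (0.93), Bcl2 (0.92), Sh3d19, Adck1, Rab10, Rtn2, H13 and Dlat (0.91 each) and Tigar (0.90), and 0 of the 10 were in an interferon list, as that share would give. The 10 libraries come from 5 mice and share their depth and scaling, and 0 of these 10 genes were among the 10 highest in cerebellum alone or in cortex alone. In KO cerebellum their log2 differences lay between -0.18 (4930534D22Rik) and 0.01 (Rab10), and none was called.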

How the data were processed

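RNA from cerebellum and cerebral cortex of 5 mice at 1 year was sequenced as strand-specific paired-end libraries. The authors aligned trimmed reads to GRCm38 with STAR and counted pairs per gene with featureCounts 2.0.1 without strand, counting a pair for every gene it overlapped and leaving out multi-mapping reads, so members with near-identical copies lose counts and overlapping or antisense genes can share them. The deposited values are raw counts, 1 table per library. Of 81881 entries the 55536 mouse genes were used, named from GENCODE M21. The other 26345 entries held 0.160% to 0.926% of a library and stayed out of library sizes and tests. Submitters' notes name DESeq2 1.38.3.

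Here edgeR 4.0.16 (R 4.3.3) was run on all genes kept by filterByExpr (minimum 10) with TMM scaling and the quasi-likelihood F test, and Benjamini-Hochberg adjustment over all genes tested. A call needs an adjusted p under 0.05 and, except for the interaction, an absolute log2 difference over 0.5. Intervals are 95%. CPM are TMM-scaled within a tissue, log2 CPM use a prior count of 2, and TPM were computed from counts and the deposited gene lengths. The biological coefficient of variation was 0.121 in cerebellum and 0.141 in cortex. Alternatives were DESeq2 1.42.0, RLE scaling, library totals alone, no filter, 1 fit of all 10 libraries, a block and leaving out each library. The fits were tested on simulated data. Each library of a group is a different mouse. No sequencing batch or date is given in the labels. Equal animal numbers mark the same mouse in both tissues, and the deviations of its 2 libraries from their group means correlated with r of 0.23 to 0.46 over 18111 genes. The members and the gene lists were chosen with earlier results of these data known. Named genes are all members, Snx14, in each list the called genes or at most the 3 with the smallest adjusted p, or where none was called the 2 with the smallest p in cerebellum, and the 10 genes most like the members. Others (Ifit3b, Ly6e and those of the interferon ligands) were named after their values were seen. 1 gene that this rule names is not reported here.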

Additional observations from a re-analysis of the deposited data

Results flagged for a closer look

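Rsad2, which encodes the antiviral enzyme viperin, had opposite differences in the tissues: both KO libraries lay above all 3 controls in cerebellum and below all 3 in cortex. The interaction estimate was 1.54 on the log2 scale, with an unadjusted p of 0.00507 and an edgeR adjusted p of 0.294 over 20614 genes, so it did not pass. The gene was measured on 11 to 61 counts a library.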

How the results depend on the processing

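With 3 against 2 mice and members at 6 to 1182 counts a library, only large differences were measurable. Member calls stayed at 0 in KO cortex and in the interaction under each alternative run. In KO cerebellum 1 member, Ifit3, was called with no filter, with cerebellum control 2 and KO 1 left out, and without control 2 (range 0 to 1 without each library in turn). Fits with no filter had infinite prior degrees of freedom, as did the cerebellum fit without both libraries, so their p-values are not reliable. Genes called in KO cerebellum numbered 302, against 842 with no filter, 1061 without both libraries and 133 to 400 without each library. In KO cortex they numbered 0, against 49 with DESeq2, 380 with no filter and 0 to 98 without each library. For the interaction they numbered 21, against 221 with DESeq2, 599 with no filter and 3 to 117 without each library.

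Members called higher in control cerebellum numbered 4, against 7 with no filter, 7 without both libraries and 3 to 7 without each library. The members' median ranged without each library from -0.33 to -0.07 in KO cortex and from 0.61 to 1.31 between the tissues. Of the 10 genes most like the members 0 recurred in either tissue alone, and 3 members held the longer motif in place of 5. The cause of these shifts was not tested. Fits that leave 1 KO library assume that it varies like the other group.

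The KO and control mice of equal number are different animals. Deviations of these pairs correlated with r of 0.03 to 0.19, so the replicate block there is only a number. It called 181 genes in cerebellum and 3 in cortex, and turned Ifit1 to 0.23 and Isg15 to -0.11 in cerebellum. The block on the animal between tissues, a real pairing, called 128 interaction genes and 7 members between tissues, and changed no member's interaction call.

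Signs of small differences turned. Without both libraries Oasl2 was -0.11 and Isg15 -0.33 in KO cerebellum, and the interaction was -0.03 for Isg15 and -0.07 for Usp18. Between tissues Isg15 and Rsad2 were -0.01 with DESeq2 and with RLE scaling. Without each library in turn, KO cerebellum ranged from -0.40 to 0.23 for Ifit1, -0.25 to 0.29 for Isg15 and -0.29 to 0.56 for Oasl2. KO cortex ranged from -0.31 to 0.06 for Irf7, -0.33 to 0.18 for Ifit1, -0.75 to 0.27 for Oasl2, -0.17 to 0.03 for Ifi27, -1.03 to 0.18 for Isg15 and -0.62 to 0.17 for Ifit3. The interaction ranged from -0.08 to 0.91 for Usp18, -0.34 to 0.31 for Ifit1, -0.69 to 0.10 for Ifi27, -0.21 to 0.96 for Oasl2 and -0.13 to 1.07 for Isg15, and -0.51 to 0.05 for Snx14. Between tissues Rsad2 ranged from -0.11 to 0.16 and Isg15 from -0.31 to 0.28. Rsad2 stayed at 0.33 to 0.96 in KO cerebellum, -0.94 to -0.74 in KO cortex and 1.19 to 1.80 in the interaction. Snx14 in KO cerebellum did not pass without KO 1 (edgeR adjusted p 0.0989) or KO 2 (0.0638).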
